A study of Mus musculus with 6 samples.

Results

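The genes of mitochondrial ribosomal proteins were taken as all rows of the deposited expression table whose symbol is Mrpl or Mrps followed by a number and at most 1 letter from a to d, without a pseudogene suffix. They numbered 78 of 54232 genes, 49 named Mrpl for the large subunit and 29 named Mrps for the small subunit. Their messages were measured by RNA sequencing in mouse cultures labelled as female germ line stem cells, treated for 8 h with C89, a compound for which the labels give nothing but this code name, or with DMSO as control. Each group had 3 libraries, called here DMSO 1, 2 and 3 and C89 1, 2 and 3. The labels name no genotype, strain or age and do not say whether the libraries came from separate cultures, and every p-value below therefore reflects library-to-library spread alone, part or all of which may be technical.

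Mitochondria carry their own ribosome, which makes the few proteins encoded by mitochondrial DNA, all of them parts of the oxidative phosphorylation machinery. Its RNAs come from the mitochondrial genome, while every one of its proteins is encoded in the nucleus, made in the cytosol and imported. Some of these proteins descend from bacterial ribosomal proteins and others were gained during the evolution of mitochondria, and the genes are spread over many chromosomes.

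The start regions of 4 genes that the results turn on are given first, read from RefSeq on GRCm38.p6 and written 5′ to 3′ on the strand of the gene, ending at the base before its RefSeq start. Mrpl10 (chr11:97041408-97041581, + strand, 174 bases) and Mrpl50 (chr4:49521084-49521175, - strand, 92 bases) are shown because each shares its start region with a gene read in the opposite direction, Lrrc46 and Zfp189, and both genes of each pair changed. Mrps2 (chr2:28467816-28468065, + strand, 250 bases) and Mrps18a (chr17:46110754-46111003, + strand, 250 bases) are shown as the starts of 2 genes that fell under every setting tried. Capitals mark CATGCGC, the core of a site for NRF1, at bases 42 to 48 of the Mrpl10 stretch and CCGGAAG, the core of a site for ETS factors such as GABP, at bases 225 to 231 of the Mrps18a stretch, counted from the first base printed. The stretches of Mrpl50 and Mrps2 held no match to the motifs searched.
Mrpl10: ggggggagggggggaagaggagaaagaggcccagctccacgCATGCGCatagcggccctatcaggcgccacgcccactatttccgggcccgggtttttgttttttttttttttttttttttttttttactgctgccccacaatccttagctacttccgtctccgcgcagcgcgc
Mrpl50: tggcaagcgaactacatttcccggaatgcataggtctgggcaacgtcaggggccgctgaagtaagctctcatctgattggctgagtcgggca
Mrps2: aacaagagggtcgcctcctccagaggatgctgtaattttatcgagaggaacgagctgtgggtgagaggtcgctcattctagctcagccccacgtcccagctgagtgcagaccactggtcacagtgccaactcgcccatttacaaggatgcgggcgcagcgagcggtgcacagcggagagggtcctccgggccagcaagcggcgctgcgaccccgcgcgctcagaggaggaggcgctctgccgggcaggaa
Mrps18a: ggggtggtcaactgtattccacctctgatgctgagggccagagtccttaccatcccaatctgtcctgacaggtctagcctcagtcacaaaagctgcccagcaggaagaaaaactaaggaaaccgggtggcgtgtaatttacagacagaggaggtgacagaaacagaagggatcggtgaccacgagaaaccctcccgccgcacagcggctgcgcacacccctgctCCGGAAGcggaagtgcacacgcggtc

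Reads assigned to genes numbered 7772060 to 21763459 per library, lowest in C89 2, and the values below are read counts divided by the authors' size factor of each library (normalized counts). A member other than Mrpl53 had 81 to 4150 reads in a library, with a median of 671.5. C89 2 and C89 3 were nearly alike, since counts of 0.686% of genes and of 0 of 77 members differed between them beyond sampling noise, against 25.7 to 48.4% of genes in the other pairs within a group. Their chi-square per degree of freedom was 1.63, against 9.08 to 27.0 in those pairs, so some difference beyond counting remained and they were kept as 2 libraries. They may nevertheless come from 1 library or culture, in which case each C89 mean and SD given with n = 3 rests on 2 independent libraries and the p-values are too small. With the pair summed, limma called 3 Mrpl genes higher and 1 lower, and 1 Mrps gene higher and 3 lower. Of all 18954 tested genes 1548 were then higher and 1725 lower, against 2365 and 2581 with the pair apart. Of 12 germ cell markers, Dazl, Nanos3, Dppa3 and Sall4 were listed at 0 in every library, Ddx4 reached at most 6.20 normalized counts, and Kit alone had a mean of at least 100, so the labelled identity was not borne out by these markers. The 10 mast cell markers, Kit among them, summed to 49439 to 59271 in DMSO and 84001 to 95209 in C89, nearly all of it from Kit, Gata2 and Cpa3, with Ms4a2 at 0 and Fcer1a, Tpsb2 and Mcpt4 at no more than 1.27. The 9 fibroblast markers summed to 1258, 2416 and 138 in DMSO and 57.6 to 135 in C89, with Lum at 0, and the 6 macrophage markers to 1802 to 2701 and 3721 to 3988, with Csf1r and Itgam at no more than 2.55. A mean of at least 100 was reached by 4 of the mast cell, 2 of the fibroblast and 2 of the macrophage markers. The 5 granulosa cell markers summed to 7.16 to 7.34 and 10.6 to 39.5, with Foxl2, Fshr and Cyp19a1 at 0. The part of these differences in the results below was not tested, and fewer cells of a type and less RNA per cell cannot be told apart in such bulk samples.

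The mitochondrial ribosomal protein genes as a group stayed near their DMSO level after 8 h of C89, while single genes of both subunits moved in opposite directions. In a limma test across the 18954 genes averaging 1 normalized count or more, 14 of 77 tested members had an adjusted p (Benjamini-Hochberg) under 0.05, or 18.2%, against 26.1% of all tested genes. Of these, 7 were higher in C89 and 7 lower, while 12.5% of all genes were higher and 13.6% lower. Of the 48 tested Mrpl genes 5 rose and 3 fell, and of the 29 Mrps genes 2 rose and 4 fell. Among the 7447 genes whose mean lay within the members' range, 38.7% were called, so the members' share was also the smaller one within that range. The spread of levels inside the range was not matched.

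**Figure D1:**
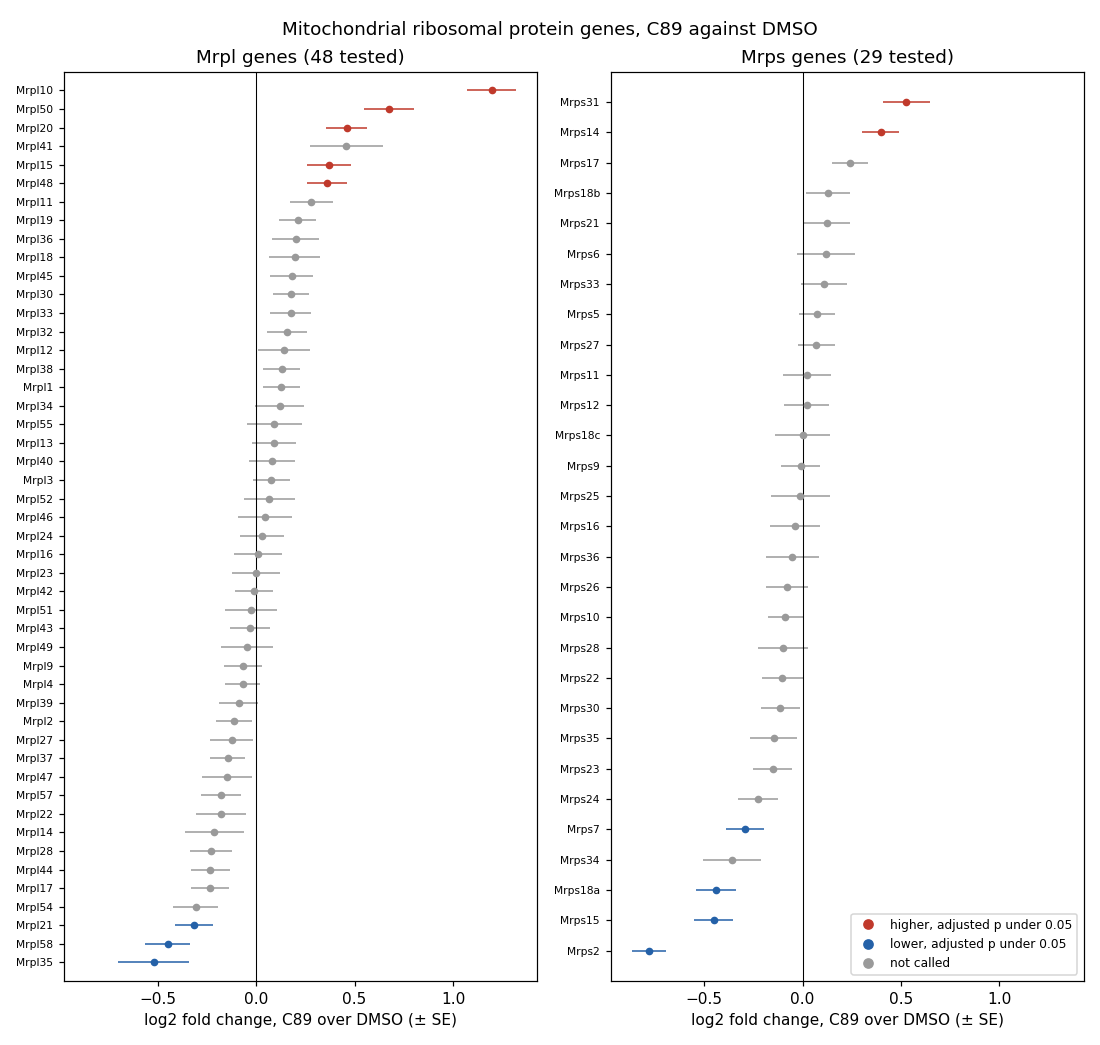
Log2 fold change (C89 over DMSO, on the log2(value + 1) scale) with its standard error for each of the 48 tested Mrpl and 29 tested Mrps genes, ordered by size; red points are higher and blue points lower at an adjusted p under 0.05. Most genes of both panels lie within 0.25 of 0, and Mrpl10 stands alone above 1.

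The changes were mostly small. On the log2 scale the median fold change was 0.04 over Mrpl, -0.04 over Mrps and -0.03 over all tested genes. Of 77 members 59 changed by less than 0.25, where the median standard error was 0.11, and only Mrpl10 by at least 1. The 3 libraries of C89 lay wholly above those of DMSO for 9 members and wholly below for 14, together 29.9%, against 40.9% of all tested genes and 54.4% of genes within the members' level range. Scaling by total reads instead of the authors' factors shifted all genes downward, from a median of -0.02 to -0.17 among genes with a mean of at least 50. On that scale 3 Mrpl genes rose and 10 fell, and 1 Mrps gene rose and 7 fell, beside 1514 and 4097 of all genes.

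Mrpl10 (ENSMUSG00000001445) had the largest change of the members. Its product anchors the flexible stalk through which the large subunit engages translation factors. It had 2011, 1843 and 1392 normalized counts in DMSO 1, 2 and 3 and 3676, 4044 and 4171 in C89 1, 2 and 3. Every C89 library was higher than every DMSO library, and the means, 1748 ± 320 and 3964 ± 257 (SD, n = 3 each), differed 2.27-fold. The log2 fold change was 1.20 with a standard error of 0.12 (limma, adjusted p = 5.29e-05). With any 1 library left out it lay between 1.04 and 1.30, and the adjusted p did not exceed 0.0203.

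The partners of Mrpl10 in the stalk did not pass the test. Mrpl12, which forms the stalk itself, had 1369, 993 and 937 normalized counts in DMSO and 1102, 1260 and 1229 in C89. The groups overlapped through DMSO 1, and the log2 fold change was 0.14 (SE 0.13, limma adjusted p = 0.467), turning to -0.01 with scaling by total reads and reaching 0.31 (adjusted p = 0.0397) without DMSO 1. Mrpl11, at the base of the stalk, had 617, 512 and 486 in DMSO and 666, 648 and 638 in C89. All 3 C89 libraries were above all 3 DMSO libraries, with a log2 fold change of 0.28 (SE 0.11) and an adjusted p of 0.0775, or 0.0168 without DMSO 1.

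Of the other large-subunit genes, Mrpl50, Mrpl20, Mrpl15 and Mrpl48 rose. Mrpl50 (ENSMUSG00000044018), whose product has no bacterial counterpart, had 685, 531 and 483 normalized counts in DMSO and 827, 957 and 905 in C89. The groups did not overlap, the ratio of the means was 1.58, and the log2 fold change was 0.68 (SE 0.13, limma adjusted p = 0.00221; 0.0600 without DMSO 2). Mrpl20, whose bacterial relative binds the ribosomal RNA early in assembly, had 1238, 1055 and 1022 in DMSO and 1387, 1504 and 1664 in C89. Each C89 library was again above each DMSO library, by 0.46 on the log2 scale (SE 0.10, adjusted p = 0.00598), with 0.0749 without DMSO 2 and 0.0592 without C89 3.

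Mrpl48, a protein of the central protuberance of the large subunit, had a small spread in both groups. It had 355, 367 and 375 normalized counts in DMSO and 480, 455 and 471 in C89, so that the groups lay well apart at a log2 fold change of 0.36 (SE 0.10, limma adjusted p = 0.0200). It missed the threshold without DMSO 2 (0.0523), without C89 2 (0.0528) and without C89 3 (0.0693), with the replicate number as a block (0.0536), with C89 2 and C89 3 summed (0.0548) and with scaling by total reads (0.143). Mrpl15, a protein with a bacterial relative, had 2114, 1763 and 1539 in DMSO and 2163, 2410 and 2374 in C89. DMSO 1 came close to C89 1, and the log2 fold change of 0.37 (SE 0.11, adjusted p = 0.0269) was not called without DMSO 2, DMSO 3, C89 2 or C89 3, where the adjusted p was 0.162, 0.112, 0.132 and 0.134. It was also lost with C89 2 and C89 3 summed (0.114) and with scaling by total reads (0.145).

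Mrpl58, Mrpl21 and Mrpl35 fell. The product of Mrpl58 is a peptidyl-tRNA hydrolase known for rescuing stalled mitochondrial ribosomes, and it is also built into the large subunit. Its values were 409, 369 and 413 normalized counts in DMSO and 271, 285 and 316 in C89. The groups did not overlap, and the log2 fold change was -0.45 (SE 0.11, limma adjusted p = 0.0121; 0.0549 without C89 2). Mrpl21 had 680, 625 and 639 in DMSO and 486, 553 and 524 in C89, again without overlap, at -0.32 (SE 0.10, adjusted p = 0.0323).

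The calls of Mrpl21 and Mrpl35 were close to the threshold. With any 1 of the 6 libraries left out Mrpl21 had an adjusted p of 0.0566 to 0.0928, and it had 0.0769 with the replicate number as a block and 0.0638 with C89 2 and C89 3 summed. Mrpl35 had 321, 289 and 346 normalized counts in DMSO and 165, 226 and 292 in C89. C89 3 exceeded DMSO 2, the groups overlapped, and the log2 fold change of -0.52 (SE 0.18) had an adjusted p of 0.0493 in limma, 0.0674 in edgeR's quasi-likelihood test and 0.0603 in DESeq2. It also missed the threshold with a pseudocount of 5 (0.0574), with no filter on low values (0.0545) and with C89 2 and C89 3 summed (0.0646). Only without C89 3 was it called with a library left out (adjusted p = 0.0321), and without the others the adjusted p was 0.117 to 0.191.

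**Figure D2:**
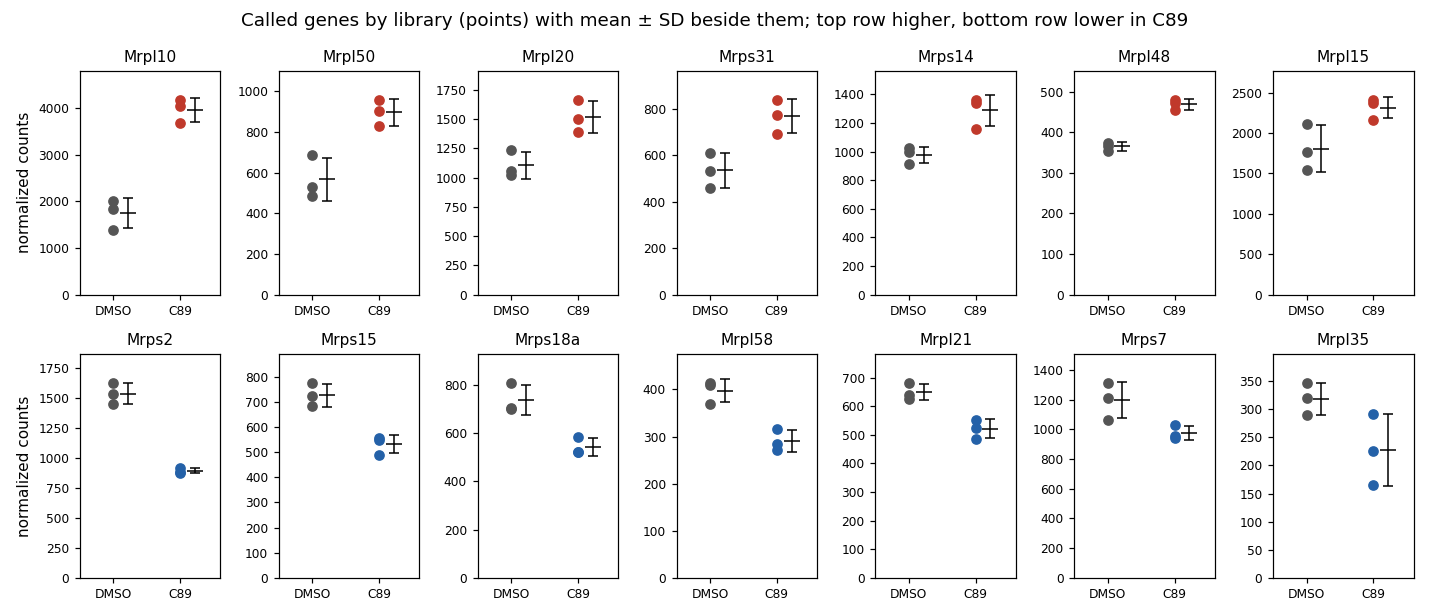
Normalized counts of the 14 called genes in each library (points), with the group mean and SD (n = 3) beside them; the axes start at 0 and differ between panels. The groups are apart in every panel except that of Mrpl35, and the distance is widest for Mrpl10 and Mrps2.

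Mrps2 (ENSMUSG00000035772) had the largest fall. Its product sits between the head and the body of the small subunit and has a bacterial counterpart. It had 1532, 1453 and 1624 normalized counts in DMSO and 917, 886 and 878 in C89. The 3 C89 libraries were nearly equal and all below the DMSO libraries, with means of 1536 ± 85.8 and 894 ± 20.5 (SD, n = 3 each), 1.72 times lower. The log2 fold change was -0.78 (SE 0.09, limma adjusted p = 9.20e-05), and -0.82 to -0.74 with any 1 library left out.

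Mrps15 and Mrps7 also fell among the genes of the small subunit. Mrps15, whose bacterial relative binds the ribosomal RNA early in assembly, had 775, 684 and 724 normalized counts in DMSO and 490, 555 and 550 in C89. The groups did not overlap, and the log2 fold change was -0.45 (SE 0.10, limma adjusted p = 0.00565, at most 0.0343 with any 1 library left out). Mrps7, a protein of the head of the small subunit, had 1311, 1066 and 1212 in DMSO and 954, 941 and 1027 in C89. Here too every C89 library was below every DMSO library, at -0.29 (SE 0.10, adjusted p = 0.0442), but it was called only without DMSO 2 (0.0432) when 1 library was left out, and otherwise had an adjusted p of 0.0903 to 0.156. It was also lost with no filter on low values (0.0533), with the replicate number as a block (0.0758) and with C89 2 and C89 3 summed (0.116).

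Mrps31 and Mrps14, both of the head of the small subunit, rose. Mrps31, without a bacterial counterpart, had 611, 533 and 460 normalized counts in DMSO and 691, 774 and 838 in C89. The groups were apart at a log2 fold change of 0.53 (SE 0.12, limma adjusted p = 0.00667), with 0.0771 without DMSO 2 and 0.0653 without C89 3. Mrps14 had 997, 912 and 1022 in DMSO and 1160, 1362 and 1342 in C89, also apart, at 0.40 (SE 0.10, adjusted p = 0.00919). It missed the threshold without DMSO 2 (0.0707), C89 2 (0.0641) or C89 3 (0.0660), with C89 2 and C89 3 summed (0.0566) and with scaling by total reads (0.0711).

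The 3 genes named Mrps18 had different values, and Mrps18c alone is counted below as having a bacterial counterpart. Mrps18a (ENSMUSG00000023967), whose product is in the large subunit of the assembled particle despite its name, had 808, 702 and 704 normalized counts in DMSO and 522, 522 and 586 in C89. It was lower in every C89 library, at a log2 fold change of -0.44 (SE 0.10, limma adjusted p = 0.00741, at most 0.0485 with any 1 library left out). Mrps18b, in the small subunit, had 441, 362 and 404 in DMSO and 423, 439 and 455 in C89, with overlap. Its log2 fold change was 0.13 (SE 0.11, adjusted p = 0.434), or -0.02 with scaling by total reads. Mrps18c, at the place of S18 in the small subunit, had 289, 285 and 311 in DMSO and 241, 339 and 313 in C89, and the difference was -0.00 (SE 0.14, adjusted p = 0.9996), with a sign that varied between settings. The differences between paralogs were not tested.

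Mrps30 and Mrps36 carry names that do not match their place. Mrps30, a protein of the large subunit in the assembled particle, had 753, 685 and 782 normalized counts in DMSO and 633, 728 and 692 in C89, an overlapping difference of -0.11 on the log2 scale (SE 0.10, limma adjusted p = 0.442). Mrps36, which is known as a component of the oxoglutarate dehydrogenase complex and not of the particle, had 336, 244 and 295 in DMSO and 271, 278 and 288 in C89, at -0.05 (SE 0.13, adjusted p = 0.817; 0.06 without DMSO 1). Sorted by place in the particle, 5 of 50 tested genes of the large subunit rose and 4 fell, and 2 of 26 of the small subunit rose and 3 fell. Of 44 genes with a bacterial counterpart 4 rose and 5 fell (median 0.02), and of 29 tested genes without one 3 rose and 1 fell (median -0.03). Called shares were thus 20.5% and 13.8%, beside 26.1% of all tested genes and 38.7% of those within the members' level range. Mrpl55, Mrps18a, Mrps28 and Mrps36 were assigned to neither origin.

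The remaining 63 tested members were not called. They include Mrpl23 (log2 fold change -0.00, SE 0.12), Mrpl42 (-0.01, SE 0.10) and Mrps9 (-0.01, SE 0.10), whose means in the groups were nearly equal. Mrpl41 (0.46, SE 0.19, limma adjusted p = 0.0901) had groups that overlapped. Mrps34 (-0.36, SE 0.15, limma adjusted p = 0.0900) was lower in every C89 library. It had 233, 197 and 260 normalized counts in DMSO and 174, 165 and 196 in C89. A p that misses the threshold does not show that a gene was the same in both groups. Mrpl53 was listed at 0 in all 6 libraries. Of its annotated exon bases 88.0% are shared on the same strand with Gm42688, which had 10.4 to 21.7 normalized counts. How reads in the shared bases were assigned is not given, and its part in the value of 0 was not tested.

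The libraries of a group differed in where the members lay. Among the 77 members DMSO 1 had the highest value of its group in 57, and DMSO 2 the lowest in 48, while C89 1 was the lowest of its group in 62 and C89 3 the highest in 45. Members deviated from their group mean by a median of 0.11 in DMSO 1 and -0.11 in C89 1 on the log2 scale, against 0.01 and -0.01 for all genes with a mean of at least 50. Without DMSO 1, 11 Mrpl genes were called higher and 1 lower, the 6 added being Mrpl11, Mrpl12, Mrpl18, Mrpl19, Mrpl36 and Mrpl41, and Mrps17 was added to the higher Mrps genes. The number of higher Mrpl genes was 1 without DMSO 2, 3 without C89 2 and 2 without C89 3, and of higher Mrps genes 0 without DMSO 2, 1 without C89 2 and 0 without C89 3. Lower Mrpl genes numbered 1 without DMSO 1, DMSO 2, DMSO 3 or C89 1 and 0 without C89 2. With C89 2 and C89 3 summed, 3 Mrpl genes rose and 1 fell, and 1 Mrps gene rose and 3 fell. Over all 18954 tested genes, 2365 were higher with all 6 libraries apart and 2347 without DMSO 1. Higher genes numbered 1151 without DMSO 2, 1365 without C89 2, 1188 without C89 3 and 1548 with the pair summed. Lower genes numbered 2364, 1152, 1967, 2154 and 1546 without DMSO 1, DMSO 2, DMSO 3, C89 1 and C89 2 in turn. They numbered 1725 with the pair summed and 2581 with all 6 libraries apart.

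The balance between the classes was read as the ratio of the summed Mrpl to the summed Mrps values, which does not depend on how libraries are scaled. It was 1.82, 1.79 and 1.67 in DMSO and 2.07, 2.01 and 2.04 in C89, so every C89 library was above every DMSO library. Mrpl10 and Mrps2, singled out after their values were seen, carried much of this. Without them the ratio was 1.86, 1.83 and 1.74 in DMSO and 1.97, 1.90 and 1.92 in C89, still without overlap but closer. The summed Mrpl values themselves overlapped, at 40037, 34564 and 34457 in DMSO and 37397, 40683 and 41894 in C89, and so did the summed Mrps values, at 21992, 19299 and 20614 and at 18042, 20212 and 20559. No p is given for sums over the members.

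**Figure D3:**
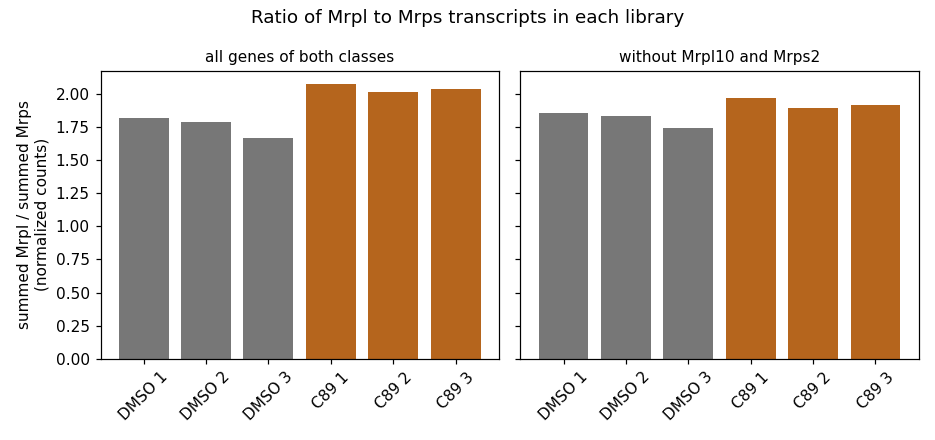
Ratio of summed Mrpl to summed Mrps normalized counts in each library, with all genes of both classes (left) and without Mrpl10 and Mrps2 (right); bars start at 0. The C89 bars stand above the DMSO bars in both panels, by less in the right one.

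Levels per transcript length covered a wide range in both classes. Per kilobase of transcript the DMSO mean had a median of 526 normalized counts over Mrpl, with a range of 85.7 to 2237, and of 516 over Mrps, with a range of 44.2 to 1440. The highest levels per kilobase in DMSO were those of Mrpl20 (2237), Mrpl30 (1980) and Mrpl42 (1833). Mrpl10 had 1426 per kilobase in DMSO and 3233 in C89, above the 3073 of Mrpl20 in C89. Across the 77 members the log2 fold change and transcript length had a Spearman correlation of -0.07, a description over genes of the same libraries.

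Some members share exon bases with other genes, which matters if reads were counted without strand. Of the 78 members 23 share exon bases with a protein-coding gene, 19 of them only with genes of the opposite strand. Among the called members these are Mrpl48 with Rab6a (8.68% of its exon bases), Mrpl21 with Ighmbp2 (5.82%) and Mrps7 with Gga3 and Mif4gd (6.13 and 5.74%), all on the opposite strand. Some members not called share more, such as Mrps25 with Nr2c2 (69.8%) and Mrps34 with Mapk8ip3 (63.4%), both on the opposite strand. Mapk8ip3 had 1645 to 2398 normalized counts. Mrps34 also shares 37.0% on the same strand with Nme3, which was at 0 in every library. Whether reads were counted by strand is not given in the sources used here. The expressed pseudogene Mrpl48-ps, at 190 to 313 normalized counts, and the gene Mrpl48 may exchange reads, so the value of Mrpl48 is uncertain.

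Start regions shared with a neighbour read the other way were common among the members. In GENCODE M21, 18 of 78 members (23.1%) had a protein-coding neighbour that starts back to back within 1000 bases, against 6.71% of 22028 protein-coding genes, at 26 to 935 bases between the annotated starts. Of the 18 neighbours 4 rose and 6 fell, beside 12.5% and 13.6% of all tested genes. In either direction 26.1% of all tested genes were called, and 38.7% of those within the members' level range. Some neighbours, Lrrc46 and Fau among them, had means outside that range. In 10 of 18 pairs both genes had a fold change of the same sign, and what unrelated pairs would give was not computed. In 2 pairs both genes were called, and these are the ones whose start regions are printed above.

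Lrrc46, a leucine-rich repeat gene, rose with Mrpl10. It had 58.7, 59.8 and 19.9 normalized counts in DMSO and 150, 85.4 and 107 in C89. All C89 libraries were above all DMSO libraries, at a log2 fold change of 1.40 (SE 0.37, limma adjusted p = 0.0134), but the adjusted p was 0.0828 without DMSO 2, 0.0813 without C89 1 and 0.0893 without C89 3. Zfp189, a zinc finger gene, fell while Mrpl50 rose. Its values were 226, 302 and 343 in DMSO and 151, 132 and 158 in C89, with no overlap, at -0.96 (SE 0.16, adjusted p = 0.00127, at most 0.0455 with any 1 library left out). Thus the same kind of arrangement held a pair that moved in 1 direction and a pair that moved in opposite directions.

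In the other 16 pairs the member was not called. Sars2, the mitochondrial seryl-tRNA synthetase, fell by 0.59 on the log2 scale (SE 0.11, limma adjusted p = 0.00258) beside Mrps12 at 0.02, and Helq, a DNA helicase, fell by 0.62 (SE 0.11, adjusted p = 0.00187) beside Mrps18c at -0.00. Ptcd2, known for a role in mitochondrial RNA processing, fell by 0.56 (SE 0.10, adjusted p = 0.00149) beside Mrps27 at 0.07. Fau, which encodes a cytosolic ribosomal protein, rose by 0.47 (SE 0.10, adjusted p = 0.00431; 0.0681 without DMSO 2 and 0.0550 without C89 3) beside Mrpl49 at -0.05. The differences within pairs were not tested.

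**Figure D4:**
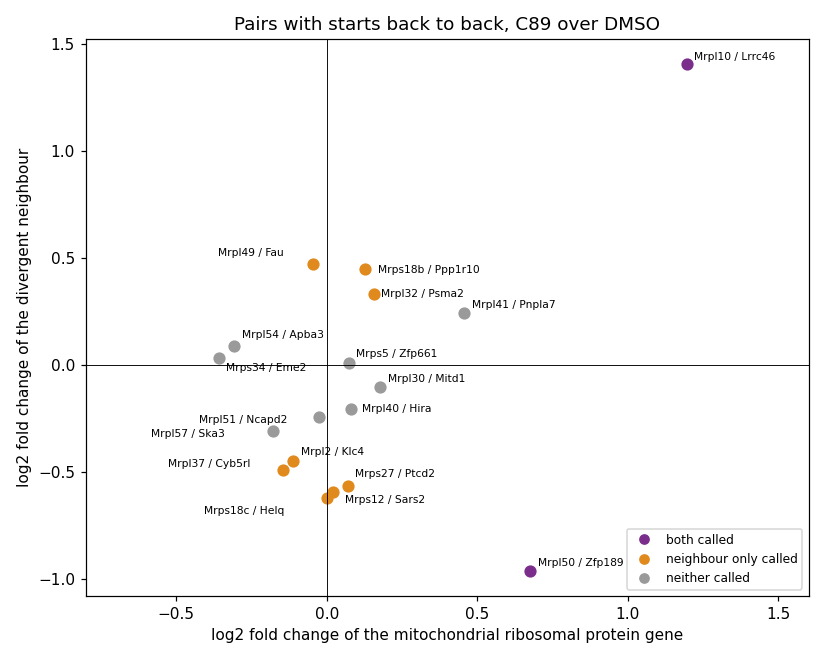
Log2 fold change (C89 over DMSO) of each of the 18 members with a back-to-back neighbour (horizontal) and of that neighbour (vertical); colours give which genes were called. Mrpl10 and Lrrc46 lie together at the upper right and Mrpl50 and Zfp189 at the lower right, while most other members stay near 0 whatever the neighbour did.

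The start regions of the members were searched for 6 motifs on both strands, in RefSeq windows from 250 bases before to 50 after each start. Of 78 members 69 had a window, 75 windows in all. The ETS core CCGGAAG was in 34.7% of the members' windows and in 8.86% of all 32851 windows. The YY1 core AANATGGC was in 28.0% and 6.05%, and the NRF1 core CATGCGC in 10.7% and 3.91%. At least 1 of these was in 56.0% and 17.0%. TATAAA was in 6.67% and 13.6%, TGACTCA (AP-1) in 2.67% and 5.20%, and CACGTG (E-box) in 9.33% and 7.15%. Among called members with a window, the YY1 core was in 5 of 7 that fell, namely Mrpl21, Mrpl35, Mrpl58, Mrps7 and Mrps18a, in 0 of 6 that rose and in 21 of 69 overall. In Mrps18a that match lies beyond the printed stretch. Of these 5, Mrpl21 kept its call in 0, and Mrpl35 and Mrps7 in 1, of the 6 fits with a library left out. Mrps2 and Mrps15, which fell in all 16 alternatives, held no YY1 match. Whether any of the 6 motifs goes with the direction of change was not tested. The ETS core was in 3 of 7 that fell and 1 of 6 that rose. A match is a run of letters and not a measured site.

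The nuclear regulators known to act on such promoters were themselves measured. Of 10 regulators 4 rose and 2 fell, beside 12.5% and 13.6% of all tested genes. In either direction 60.0% were called, against 38.7% of genes within the members' level range. That range, means of 204 to 2856 normalized counts, does not hold Myc or Ppargc1a. Gabpb1, a subunit of the ETS factor GABP, had 870, 857 and 774 normalized counts in DMSO and 1341, 1343 and 1398 in C89 (log2 fold change 0.71, SE 0.09, limma adjusted p = 0.000191). Gabpa, the DNA-binding subunit of the same factor, went the other way, with 1217, 1351 and 1583 in DMSO and 1054, 935 and 884 in C89 (-0.53, SE 0.11, adjusted p = 0.00421; 0.0625 without DMSO 2 and 0.0507 without C89 3). Both had groups that did not overlap. Nrf1 rose by 0.36 (SE 0.09, adjusted p = 0.0105; 0.0677 without C89 3 and 0.0976 with scaling by total reads).

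Myc, a transcription factor known to raise genes of ribosome production, rose by 0.97 on the log2 scale (SE 0.12, limma adjusted p = 0.000213), from 6322 ± 1218 to 12244 ± 266 normalized counts (SD, n = 3 each). Ppargc1b, a coactivator of mitochondrial genes, fell by 0.75 (SE 0.16, adjusted p = 0.00408). Its relative Ppargc1a rose, but from at most 2.39 normalized counts in DMSO to 10.2 to 13.3 in C89, too low a level for its fitted fold change to be read closely, and it was not called without C89 1 (0.0506) or C89 3 (0.0540).

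Around the ribosomal proteins, the genes that build and serve the mitochondrial ribosome fell more often than they rose. Of 25 assembly factors 1 rose and 9 fell (median log2 fold change -0.26), and of 15 translation factors 0 rose and 5 fell (median -0.21). Of 17 mitochondrial aminoacyl-tRNA synthetases 2 rose and 6 fell (median -0.23), beside 12.5% and 13.6% of all genes. In either direction 40.0, 33.3 and 47.1% of the 3 groups were called. That share was 26.1% of all tested genes and 38.7% of those within the members' level range. Shares by direction within that range were not computed. Leaving out 1 library changed these counts: the assembly factors had 2 to 7 that fell, with 2 without DMSO 2, DMSO 3 or C89 3 and 3 without C89 2, the translation factors 2 to 4, with 2 without DMSO 2 or C89 3 and 3 without DMSO 3, C89 1 or C89 2, and the synthetases 3 to 5, with 3 without C89 2 or C89 3. With C89 2 and C89 3 summed 3, 3 and 4 fell, beside 1725 of all 18954 tested genes. With scaling by total reads 15, 7 and 9 fell, beside 4097 of all genes. Of all genes 1152 fell without DMSO 2, 1967 without DMSO 3, 2154 without C89 1, 1546 without C89 2 and 1424 without C89 3. With any 1 library left out the medians of the 3 groups stayed between -0.29 and -0.22, between -0.25 and -0.16 and between -0.27 and -0.14. The difference of these groups from the ribosomal protein genes was not tested.

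Mtg2, a GTPase that acts late in assembly of the large subunit, had 723, 717 and 697 normalized counts in DMSO and 437, 378 and 423 in C89. All C89 libraries were far below the DMSO libraries, at a log2 fold change of -0.79 (SE 0.10, limma adjusted p = 0.000204, at most 0.0188 with any 1 library left out). Noa1, a GTPase linked to the small subunit, fell by 0.44 (SE 0.11, adjusted p = 0.00858; 0.0518 without DMSO 3 and 0.0747 without C89 3). The methyltransferases of the large ribosomal RNA Mrm1 and Mrm2 fell by 0.39 (adjusted p = 0.0129) and 0.52 (0.0159); Mrm1 was not called without DMSO 2 (0.0582) or C89 3 (0.0580), and Mrm2 without DMSO 2 (0.0629), DMSO 3 (0.0531), C89 2 (0.0710) or C89 3 (0.0576). Rcc1l, linked to assembly of the large subunit, was the 1 that rose, by 0.53 (SE 0.13, adjusted p = 0.00939), and was not called without DMSO 2 (0.0973), DMSO 3 (0.0540) or C89 2 (0.0702).

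Among the translation factors, Tufm, the elongation factor that brings tRNAs to the mitochondrial ribosome, had 1813, 1676 and 2042 normalized counts in DMSO and 1181, 1232 and 1315 in C89. The groups were apart, at a log2 fold change of -0.57 (SE 0.10, limma adjusted p = 0.00116, at most 0.0222 with any 1 library left out). The initiation factor Mtif3 fell by 0.67 (SE 0.12, adjusted p = 0.00152, at most 0.0347). Taco1, an activator of translation of the cytochrome oxidase subunit mt-Co1, fell by 0.67 (SE 0.15, adjusted p = 0.00560; 0.0610 without DMSO 2 and 0.0517 without C89 3). Mtrf1l, a release factor, fell by 0.59 (SE 0.20, adjusted p = 0.0453) and was not called with any 1 library left out (0.0579 to 0.178).

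Of the synthetases, which charge tRNAs inside mitochondria, Vars2 had 471, 484 and 575 normalized counts in DMSO and 269, 282 and 255 in C89. It was lower in every C89 library, at a log2 fold change of -0.92 (SE 0.12, limma adjusted p = 0.000209, at most 0.0198 with any 1 library left out). Tars2 fell by 0.49 (SE 0.10, adjusted p = 0.00408, at most 0.0450), and Iars2 by 0.37 (SE 0.09, adjusted p = 0.0102; 0.0530 without C89 2 and 0.0645 without C89 3). Mars2 and Yars2 rose, by 0.51 (SE 0.11, adjusted p = 0.00379; 0.0506 without DMSO 2) and 0.55 (SE 0.14, adjusted p = 0.0102). Yars2 was not called without DMSO 2 (0.118), DMSO 3 (0.0562), C89 2 (0.0699) or C89 3 (0.0674).

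Of 5 ribosomal proteins of mitochondria with other symbols, Dap3, a GTP-binding protein of the small subunit, fell by 0.49 (SE 0.10, limma adjusted p = 0.00326, at most 0.0323 with any 1 library left out). Gadd45gip1, a protein of the large subunit, fell by 0.47 (SE 0.14, adjusted p = 0.0228, but 0.0501 to 0.0877 with any 1 library left out). Ptcd3, of the small subunit, rose by 0.33 (SE 0.09, adjusted p = 0.0134; 0.0651 without DMSO 2, 0.0642 without C89 3 and 0.127 with scaling by total reads). The group thus held changes in both directions, as the members did.

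Of 11 genes of mitochondrial transcription and DNA maintenance 3 rose and 3 fell, beside 12.5% and 13.6% of all tested genes. In either direction 54.5% were called, against 38.7% of genes within the members' level range. Tefm, the elongation factor of the mitochondrial RNA polymerase, fell by 0.67 on the log2 scale (SE 0.11, limma adjusted p = 0.00133), Twnk, the mitochondrial DNA helicase, by 0.46 (SE 0.09, adjusted p = 0.00257) and Ssbp1, the single-strand DNA-binding protein, by 0.43 (SE 0.09, adjusted p = 0.00288), and all of them were called with any 1 library left out. Twnk shares 33.4% of the exon bases of Mrpl43 on the opposite strand, and Mrpl43 itself was at -0.03 (SE 0.10). Polg2, an accessory subunit of the mitochondrial DNA polymerase, rose by 0.58 (SE 0.14, adjusted p = 0.00890; 0.0622 without C89 3). The near-identical copies Mterf1a and Mterf1b also rose (adjusted p = 0.0251 and 0.0202), are uncertain because reads may be split between them, and were not called without DMSO 2, where the adjusted p was 0.115 and 0.0828, nor without DMSO 3 (0.0858 and 0.0765), C89 2 (0.0634 and 0.110) or C89 3 (0.165 and 0.110); without C89 1 it was 0.0773 for Mterf1a.

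The cytosolic ribosomal proteins, which build the ribosome outside mitochondria, were the counterpart of the members in the same libraries. Of 79 of these genes 67 rose and 0 fell in the limma test, beside 12.5% and 13.6% of all tested genes. At an unadjusted limma p under 0.05, 70 of them were higher and 0 lower, beside 3334 and 3742 of all 18954 tested genes. Their median log2 fold change was 0.46, against -0.00 over the mitochondrial members. On the total-read scale 44 of them rose and 0 fell (median 0.31), beside 1514 and 4097 of all genes. With C89 2 and C89 3 summed 40 rose, beside 1548 of all genes. The count was 13 without DMSO 2, 22 without C89 3 and 33 without C89 2, beside 1151, 1188 and 1365 of all genes. Their median stayed between 0.41 and 0.52 with any 1 library left out. Of the 13 mitochondrially encoded messages, the templates of the mitochondrial ribosome, mt-Nd6 rose by 0.41 (SE 0.10, adjusted p = 0.0103) and mt-Co3 by 0.33 (SE 0.08, adjusted p = 0.0109), and the median was 0.14, or -0.01 with scaling by total reads. Neither was called under that scaling, with C89 2 and C89 3 summed, or without C89 2 or C89 3, where 0 of the 13 were called; 1 of the 13 was called without DMSO 2.

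**Figure D5:**
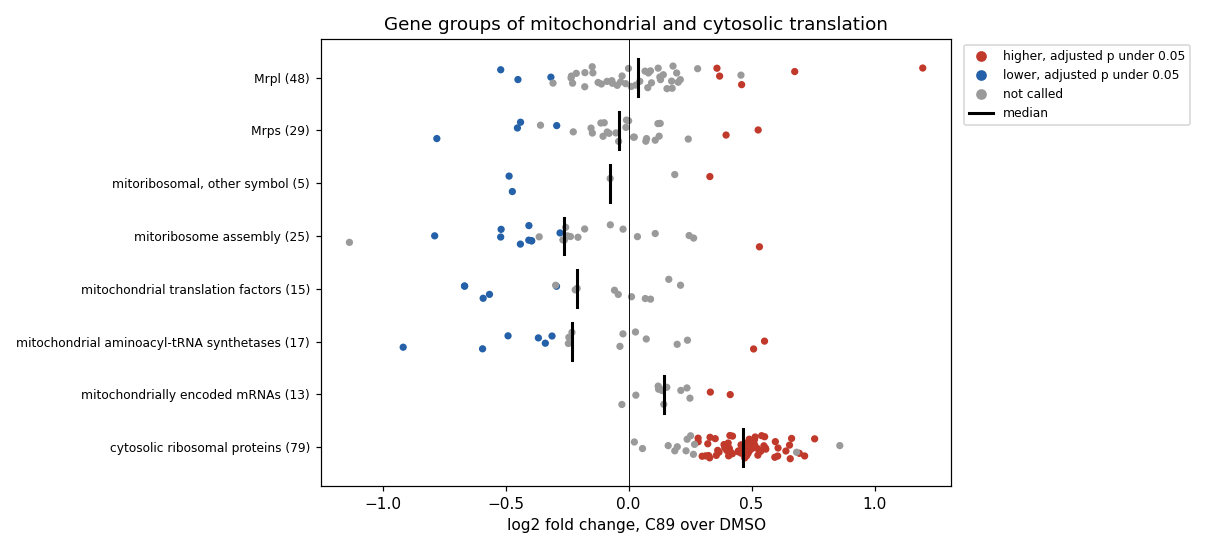
Log2 fold change (C89 over DMSO) of each tested gene of 8 groups, with the number of genes in brackets and the median as a black bar; red is higher and blue lower at an adjusted p under 0.05, and points are spread vertically only for visibility. The Mrpl and Mrps genes lie around 0, the assembly, translation factor and synthetase groups have medians of -0.26, -0.21 and -0.23, and the cytosolic ribosomal proteins have a median of 0.46.

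In the authors' deposited table, 13 of 77 members had an adjusted p under 0.05, 7 higher and 6 lower, where 29.2% of all genes with a value did. All 13 were among the 14 called here and had the same direction. Mrpl35 had 0.0615 in the authors' deposited table.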

How the data were processed

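Total RNA of 6 libraries (3 DMSO, 3 C89, 8 h) was taken with Trizol, and mRNA libraries were read from both ends, per the labels' protocols, which name 2 kits, 1 of them directional. The submitters' processing notes list HISAT2 and DESeq2. Build, annotation and read counter are not given in the sources consulted. The deposited signal per library is read counts divided by 1 size factor: 100% of 119020 values above 0 were whole reads within 0.01 read, and 1 read is worth 0.667 to 2.03 normalized counts. That table also gives the authors' log2 fold change and adjusted p-value per gene. A further 6 unnamed columns with values were not used, and 1 gene with text in a cell was left out.

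Because the values were normalized, the planned fallback was the test: limma 3.58.1 (R 4.3.3) with a mean-variance trend on log2(value + 1), which understates changes of low genes, on the 18954 genes averaging 1 or more, Benjamini-Hochberg at 0.05 over all. edgeR 4.0.16 and DESeq2 1.42.0 on the recovered reads were alternatives (results in the closing section), with other scalings, pseudocounts, filters, a replicate block, C89 2 and C89 3 summed, and each library left out. The procedure was run on simulated data with independent libraries and the same dispersion for every gene. That run cannot show how the p-values behave with C89 2 and C89 3 nearly alike. Members and lists were chosen with earlier results of these data known. Called members, members of the largest change, the Mrps18 genes, stalk proteins, misnamed members and up to 4 called genes per list and direction are described; back-to-back neighbours outside these lists were named after their values were seen. Transcript length is the median over GENCODE M21 basic protein-coding transcripts, which may differ from the annotation the authors counted. Figures were drawn with matplotlib 3.10.9.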

Additional observations from a re-analysis of the deposited data

How the results depend on the processing

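Mrpl10, Mrps2, Mrps15 and Mrps18a kept their call and direction in all 16 alternatives, and 0 of the 14 called members reversed. edgeR called 5 Mrpl genes higher and 2 lower and 2 Mrps genes higher and 4 lower, and DESeq2 gave the same counts. Of all genes edgeR called 2186 higher and 2498 lower, and DESeq2 2175 and 2341. With scaling by total reads 1514 genes rose and 4097 fell, with 3 and 10 Mrpl genes (median log2 fold change -0.11) and 1 and 7 Mrps genes (median -0.19); this scaling moves all genes down together. On that scale Mrps18b was at -0.020 and Mrpl12 at -0.0078. Mrps18c, near 0, was above 0 in DESeq2 (0.0011) and with a pseudocount of 5 (2.71e-05), and with any 1 library left out it was at -0.10 to 0.14 and Mrps36 at -0.17 to 0.056. With C89 2 and C89 3 summed, which leaves 5 libraries, 1548 genes rose and 1725 fell. Of the members 3 Mrpl genes were higher and 1 lower, and 1 Mrps gene was higher and 3 lower.

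With any 1 library left out, 1151 to 2347 genes rose and 1152 to 2364 fell, 1 to 11 Mrpl genes rose and 0 to 2 fell, 0 to 3 Mrps genes rose and 3 to 4 fell, and the medians were -0.01 to 0.12 over Mrpl and -0.09 to 0.02 over Mrps, so their sign was not fixed. The cause of these shifts was not tested. Same-numbered libraries did not deviate together (correlations of -0.19, -0.18 and 0.02), and differently numbered ones had -0.16 to 0.26. Deviations from a mean of 3 libraries are tied to each other. These correlations therefore cannot show whether libraries of the same number were handled together. With the replicate number as a block 1950 genes rose and 2142 fell, 4 Mrpl genes rose and 2 fell, and 2 Mrps genes rose and 3 fell; Mrpl48, Mrpl21 and Mrps7 then had an adjusted p of 0.0536, 0.0769 and 0.0758. With 3 libraries per group and a median standard error of 0.11, small changes of these genes could not be told from the spread between libraries.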
